A study of Mus musculus with 10 samples.

Results

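The genes of fast inhibitory transmission by GABA and glycine were examined in the lumbar spinal cord of SOD1G86R mice. The set comprised 25 genes of the 32506 in the count table, listed by gene symbol with earlier results of these data known. Of these, 5 serve synthesis, vesicle loading and reuptake of the transmitters. Subunits of the GABA-A receptor gave 10, the GABA-B receptor 2 and the glycine receptor 4. The postsynaptic scaffold gave 2 and chloride transport 2. Further subunits, among them Gabrq, were read outside the set. RNA came from 5 female SOD1G86R +/- mice, which overexpress mutant murine Sod1 as a transgene, and from 5 wild type (WT) females without the transgene, matched for age and litter. All 10 mice were on the FVB/N background, were 95 days old, and gave 1 library each. At this age the transgenic mice show motor symptoms, so the comparison asks how the inhibitory machinery of the cord stands at the symptomatic stage.

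GABA and glycine are the main inhibitory transmitters of the spinal cord, and many spinal interneurons release both from the same vesicles. They open chloride channels, the GABA-A and glycine receptors, and the effect of the resulting current depends on transporters that keep the internal chloride of a neuron low. GABA also acts on the slower GABA-B receptor, which signals through G proteins. In the spinal cord, Renshaw cells and Ia inhibitory interneurons use these transmitters to restrain motor neurons.

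None of the 25 genes differed between SOD1G86R and WT cords at an adjusted p under 0.01. The 2 smallest p-values belonged to Gabrd and Gabre, the delta and epsilon subunits of the GABA-A receptor, which were the 2 scarcest genes of the set and averaged lower in SOD1G86R mice. Outside the set, Gabrq, the theta subunit of the same receptor, and Hap1, a trafficking partner of GABA-A receptors, fell. Both calls were lost when any 1 mouse other than SOD1G86R replicate 4 was left out. In those fits the calls over all genes also dropped, from 190 to between 31 and 61. Gabre and Gabrq flank Gabra3 in a cluster on the X chromosome, and Gabra3 itself, at a log2 fold change of -0.04, did not pass the test.

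The promoter sequences of this X cluster are shown because 1 of its genes fell and another had the second smallest p of the set. On GRCm38, Gabre spans chrX:72255999-72274803 (minus strand), Gabra3 chrX:72432681-72656848 (minus strand) and Gabrq chrX:72825178-72842602 (plus strand), and all 3 are annotated as protein coding (GENCODE M21). The 250 bases upstream of 1 RefSeq start per gene (GRCm38.p6) follow 5′ to 3′ on the strand of the gene, from chrX:72274722-72274971, chrX:72656920-72657169 and chrX:72824928-72825177, with GC boxes (GGGCGG or its reverse complement CCGCCC) in capitals.
Gabre: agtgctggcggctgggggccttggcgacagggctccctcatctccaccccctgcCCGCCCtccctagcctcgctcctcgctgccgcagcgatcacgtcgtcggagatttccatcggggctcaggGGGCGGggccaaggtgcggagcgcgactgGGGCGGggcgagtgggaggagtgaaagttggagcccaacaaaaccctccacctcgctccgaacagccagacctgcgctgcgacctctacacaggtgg
Gabra3: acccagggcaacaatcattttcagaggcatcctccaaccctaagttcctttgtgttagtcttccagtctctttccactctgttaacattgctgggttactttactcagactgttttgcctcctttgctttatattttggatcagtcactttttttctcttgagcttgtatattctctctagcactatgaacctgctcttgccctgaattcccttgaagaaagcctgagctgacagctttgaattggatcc
Gabrq: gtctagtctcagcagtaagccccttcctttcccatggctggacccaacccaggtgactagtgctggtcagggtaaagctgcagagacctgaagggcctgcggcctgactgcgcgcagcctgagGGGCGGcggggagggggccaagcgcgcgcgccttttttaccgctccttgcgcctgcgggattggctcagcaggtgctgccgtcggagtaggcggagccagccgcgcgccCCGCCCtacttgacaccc
Gabre had 3 GC boxes and a GC content of 68.8%, Gabrq had 2 and 67.2%, and Gabra3 had 0 and 42.4%, against a median GC content of 52.4% over all RefSeq windows. RefSeq gives Gabra3 a further start, whose upstream window overlaps the first and also had no GC box, at a GC content of 39.2%. Over the windows of the set, GC content ran from 35.6% (Gabrg1, no GC box) to 80.8% (Gabbr2, with a GC box). The log2 fold changes of these 2 genes were 0.11 and 0.03. A link between GC content and change with genotype was not tested. Windows were found for 22 of the 25 genes, 30 windows in all. GGGCGG on either strand was present in 15 of these 30 windows and in 32.7% of all 32851 windows of the same length. TATAAA, again on either strand, was present in 16.7% of them and in 12.4% of all windows. The palindrome TGACGTCA was present in 0 of the 30 and in 1.55% of all. These matches describe the letters of the windows and are not binding sites.

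Library totals were 31494723 to 37080445 counts in SOD1G86R mice and 29333590 to 46003999 counts in WT mice. CPM denotes the count of a gene relative to the TMM-scaled total of its library. Sod1 was 3918 to 6415 CPM in SOD1G86R mice and 127 to 209.8 CPM in WT mice, as the labels require. In this spinal tissue 5 markers of forebrain neurons summed to only 3.94 to 5.87 CPM in SOD1G86R mice and 3.84 to 4.74 CPM in WT mice. SOD1G86R replicate 4 stood apart: marker genes of ganglion neurons summed to 68.8 CPM in it, against 2.71 to 4.30 CPM in the other SOD1G86R mice and 3.24 to 4.03 CPM in WT mice. Its microglial markers summed to 549.6 CPM, the lowest of the SOD1G86R group, which reached 1216 CPM, against 406.5 to 527 CPM in WT mice. Its 8 neuron markers summed to 7067 CPM, whereas the other SOD1G86R mice had 5829 to 6195 CPM and WT mice 6331 to 6676 CPM. The 25 genes were therefore also fitted without this mouse. Of the 16974 genes tested, 147 were higher and 43 lower in SOD1G86R cords, and with this mouse left out 868 of 17184 passed. In bulk tissue, fewer cells of a type and less RNA per cell cannot be told apart.

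The 25 genes all had enough counts for the test. Together they took 0.372 to 0.445% of the counts of SOD1G86R libraries and 0.386 to 0.409% of those of WT libraries. By edgeR 0 of 25 passed in either direction, against 1.12% of all genes tested. At an unadjusted p under 0.05 there were 2, Gabrd and Gabre, both lower in SOD1G86R cords, against 17.1% of all genes in either direction and 6.33% lower. DESeq2 also called 0 of 25, against 4.22% of the 19661 genes given an adjusted p. At an unadjusted p under 0.05 it had 3, against 10.9% of 29360 genes. That larger number includes genes of low count that edgeR left out, so its share is not comparable with 17.1%. Limma voom called 0 of 25, against 0.407%, with 2 at an unadjusted p under 0.05, against 17.0%. At an adjusted p under 0.05 edgeR still called 0 of 25, against 4.6% of all genes. The median log2 fold change of the 25 was -0.02, against -0.01 over all genes, with 10 above 0 and 15 below. In 0 of the 25 were the groups without overlap, against 4.93% of all genes tested.

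The intervals below are per gene, not corrected for the number of genes, and hold for cord RNA under the main scaling with all mice. For 22 of the 25 the 95% interval of the log2 fold change lay within ±0.5, a 1.41-fold change, against 70.8% of all genes. For 17 of them it lay within ±0.25, a 1.19-fold change, against 36.1% of all genes. The genes outside ±0.5 were Gabrd, Gabre and Glra1, and those between the limits were Gabrb2, Gabrg1, Gabrg3, Glra2 and Glra3. The plot of fold changes shows both groups of intervals.

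**Figure D1:**
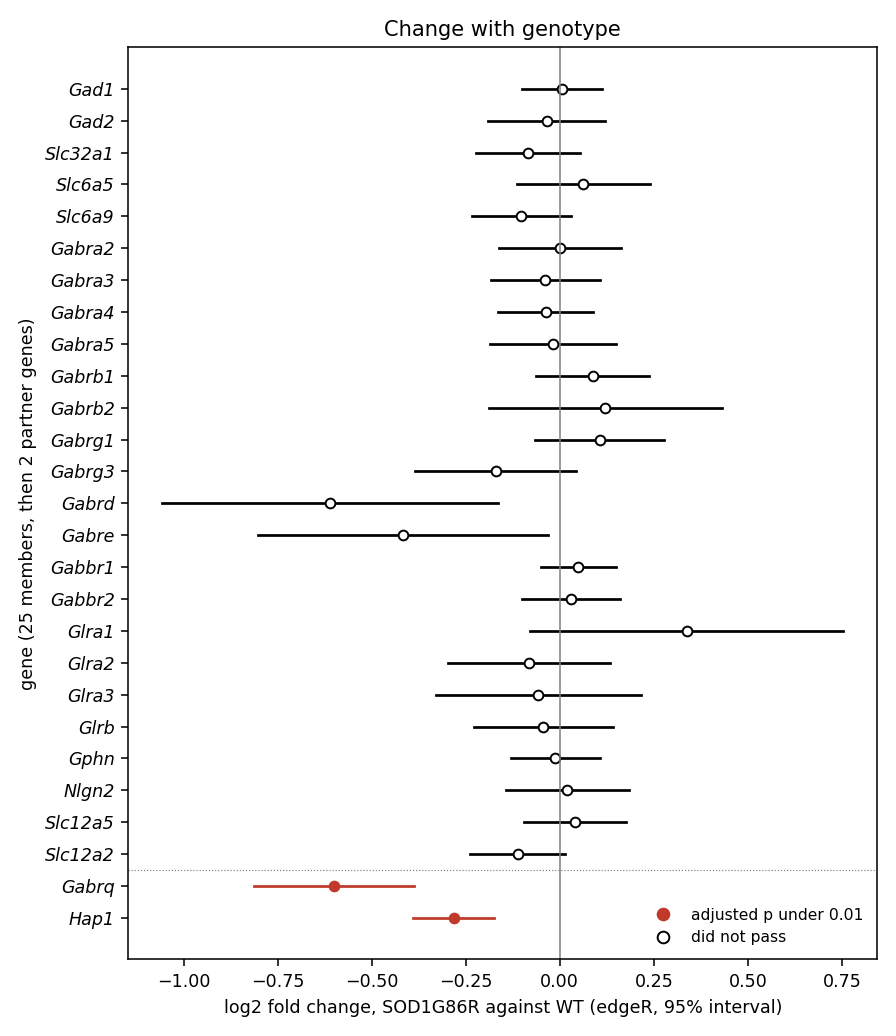
Log2 fold change of each gene in SOD1G86R against WT cords (x axis) with its 95% interval from edgeR, for the 25 genes by role and then for Gabrq and Hap1. The 25 open points did not pass the test, and the filled points of Gabrq at -0.60 and Hap1 at -0.28 did.

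TPM values here are gene counts divided by the length of all annotated exons of the gene and scaled to the library. They allow the levels of different genes to be compared, within the limit that the exons in use in the cord were not measured. Slc12a5, the neuronal chloride exporter KCC2, led with 261 TPM in SOD1G86R cords and 251.9 TPM in WT cords. It was followed in SOD1G86R cords by Gabbr1 (244 TPM, against 233 in WT), Slc6a5 (243, against 231), Glrb (239, against 244), Slc32a1 (204, against 215), Slc6a9 (202, against 215) and Glra1 (162, against 127). Gabra3 (139 TPM, against 142 in WT), Nlgn2 (105.5, against 103), Gabra2 (91.1, against 90.2), Gad1 (89.3, against 88.2), Slc12a2 (80.0, against 85.7), Gphn (77.2, against 77.2), Gabbr2 (73.7, against 71.6), Gabra5 (68.7, against 69.0) and Gad2 (62.5, against 63.4) formed the middle.

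The remaining subunit genes were at least 2-fold scarcer than Gad2 per length in both groups. For Gabrb1 this rests on its length, 13838 exonic bases against 5876 for Gad2. In CPM the means were 98.0 and 103 in SOD1G86R mice and 92.3 and 105 in WT mice for Gabrb1 and Gad2. Gabrb1 stood at 25.3 TPM in SOD1G86R and 23.6 in WT cords, Gabrg1 at 23.2 and 21.3, Gabrb2 at 17.2 and 15.7, Gabra4 at 11.8 and 12.02, and Glra2 at 11.1 and 11.6. Gabrg3 (4.28 TPM in SOD1G86R, 4.78 in WT), Glra3 (2.44 and 2.53), Gabre (1.47 and 1.95) and Gabrd (0.970 and 1.46) closed the order. Of the 24 pairs of neighbours in the SOD1G86R order, 17 overlapped between their lowest and highest mouse. The order of such a pair within each library was not compared. The steps without overlap were Gabra3 over Nlgn2, Gad2 over Gabrb1, Gabrb2 over Gabra4, Glra2 over Gabrg3, Gabrg3 over Glra3, Glra3 over Gabre and Gabre over Gabrd. For the same pairs in WT cords 17 overlapped too, and those apart were Slc6a9 and Glra1, Gabra3 and Nlgn2, Slc12a2 and Gphn, Gad2 and Gabrb1, Gabrg1 and Gabrb2, Glra2 and Gabrg3, and Gabrg3 and Glra3. The plot of levels per length shows this order.

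**Figure D2:**
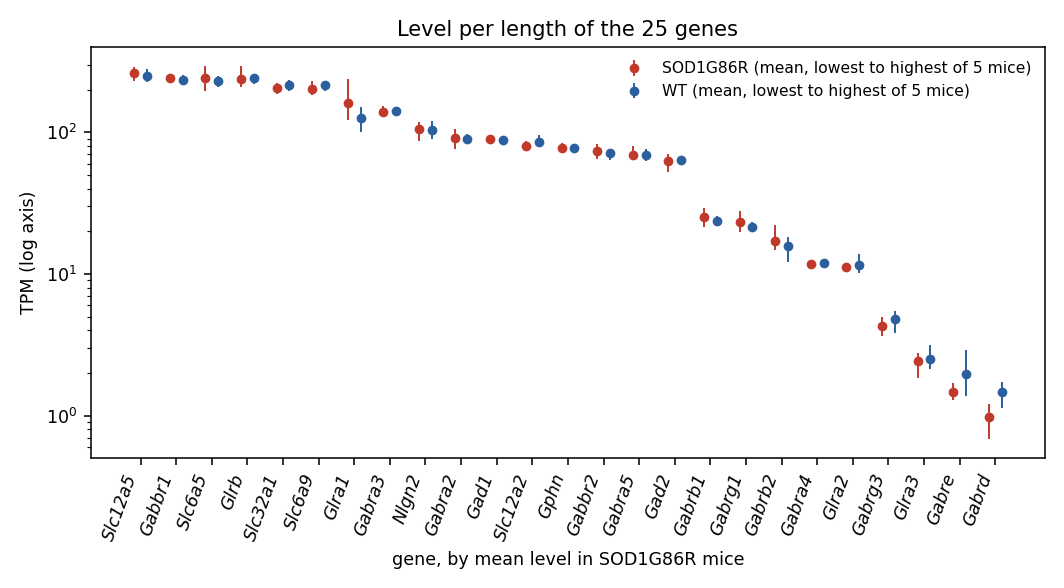
Level of each of the 25 genes in TPM (y axis, log scale), ordered by the mean of SOD1G86R mice, with points for the mean and lines from the lowest to the highest of 5 mice. Levels span 261 TPM (Slc12a5) to 0.970 TPM (Gabrd) in SOD1G86R cords and 251.9 to 1.46 TPM for the same genes in WT cords.

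Gad1 and Gad2 encode the glutamate decarboxylases that make GABA. Gad1 was 181, 196, 196, 201 and 184 CPM in SOD1G86R replicates 1 to 5, against 199, 195, 185, 193 and 180.2 CPM in WT replicates 1 to 5. The groups overlapped almost fully, with a log2 fold change of 0.01 (standard error 0.05, 95% interval -0.10 to 0.11, edgeR adjusted p = 0.969). Gad2 was 91.1, 106, 91.7, 117 and 109 CPM in SOD1G86R mice, against 98.3, 102, 107, 108 and 111 CPM in WT mice. SOD1G86R replicates 1 and 3 were the lowest and replicate 4 the highest of all 10 mice, and the log2 fold change was -0.04 (standard error 0.07, 95% interval -0.19 to 0.12, edgeR adjusted p = 0.845).

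Slc32a1 encodes VGAT, which loads both GABA and glycine into vesicles. Its level was 163, 161, 161, 177 and 139.8 CPM in SOD1G86R mice, against 182, 176, 172, 161 and 159 CPM in WT mice. SOD1G86R replicate 5 was the lowest of the 10 and the groups overlapped (log2 fold change -0.08, 95% interval -0.22 to 0.05, edgeR adjusted p = 0.543).

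Slc6a5 encodes the glycine transporter of glycinergic nerve endings and Slc6a9 the glycine transporter found mainly on astrocytes. Slc6a5 was 481, 481, 419, 601 and 475 CPM in SOD1G86R mice, against 446, 445, 489, 494 and 478 CPM in WT mice. The highest and the lowest value were both in the SOD1G86R group, in replicates 4 and 3. The log2 fold change was 0.06 (95% interval -0.11 to 0.24, edgeR adjusted p = 0.745) with all mice and -0.02 without SOD1G86R replicate 4, so that its sign rested on that mouse. Slc6a9 was 327, 278, 279, 306 and 268 CPM in SOD1G86R mice, against 316, 328, 314, 314 and 292 CPM in WT mice. SOD1G86R replicates 2, 3 and 5 lay below every WT mouse and replicates 1 and 4 did not, giving a log2 fold change of -0.10 (standard error 0.06, 95% interval -0.23 to 0.03, edgeR adjusted p = 0.427). The 8 astrocyte markers summed to 6539 to 10240 CPM in SOD1G86R mice and 5768 to 6840 CPM in WT mice, with 0 of 8 called. At an unadjusted p under 0.05 (edgeR), 3 of 8 were higher and 0 lower, against 10.8% of all genes higher and 6.33% lower. Gfap, the largest part of the sum, averaged 4497 CPM in SOD1G86R and 2619 CPM in WT mice (log2 fold change 0.78). The part of astrocytes in the level of Slc6a9 was not tested.

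The GABA-A receptor is a pentamer whose alpha subunits set its pharmacology and its place in or out of the synapse. Among the 4 alpha subunits of the set, Gabra3 made up 44.8 ± 1.64% of the summed TPM in SOD1G86R cords and 45.3 ± 0.892% in WT cords (SD, n = 5 each). In SOD1G86R cords Gabra2 made up 29.3 ± 1.85%, Gabra5 22.1 ± 0.597% and Gabra4 3.82 ± 0.273%, against 28.8 ± 1.404%, 22.0 ± 0.892% and 3.85 ± 0.285% for the same genes in WT cords. The mixture of these 4 subunits thus differed between genotypes by less than 1 SD for each.

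Gabra2 was 194, 196, 172, 231 and 184 CPM in SOD1G86R mice, against 178, 206, 186, 204 and 202 CPM in WT mice, and Gabra5, a largely extrasynaptic subunit, was 53.7, 56.3, 58.0, 67.3 and 51.7 CPM in SOD1G86R mice, against 51.7, 55.4, 62.8, 57.9 and 62.5 CPM in WT mice. In both genes SOD1G86R replicate 4 was the highest of all 10 mice. Their log2 fold changes were -0.00055 (95% interval -0.16 to 0.16) and -0.02 (95% interval -0.18 to 0.15), with edgeR adjusted p of 0.998 and 0.937. Without that mouse they were -0.07 and -0.08. Gabra3 had 139 to 172 CPM in SOD1G86R mice and 145 to 166 CPM in WT mice, and Gabra4 had 19.2 to 20.9 CPM in SOD1G86R mice and 19.8 to 22.8 CPM in WT mice. Gabra4 and Gabrb1 lie head to head on chromosome 5 and share exonic bases on opposite strands, and the strand setting of the counting is not given in the sources used here, so a few of their reads cannot be assigned.

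Beta subunits carry part of the GABA binding site, and gamma subunits are needed for the response to benzodiazepines and for synaptic clustering. Gabrb1 was 87.4 to 109 CPM in SOD1G86R mice and 88.4 to 97.4 CPM in WT mice, and Gabrb2 was 25.8 to 40.3 CPM in SOD1G86R mice and 21.5 to 32.3 CPM in WT mice. Gabrg1 was 42.8, 48.6, 53.7, 52.0 and 58.7 CPM in SOD1G86R mice, against 43.5, 50.3, 45.0, 50.4 and 48.6 CPM in WT mice (log2 fold change 0.11, 95% interval -0.07 to 0.28, edgeR adjusted p = 0.541). Gabrg1 was above all WT mice in SOD1G86R replicates 3, 4 and 5 only. Gabrg3 was 12.5, 13.95, 12.8, 16.7 and 15.6 CPM in SOD1G86R mice, against 16.9, 13.5, 18.2, 15.6 and 16.3 CPM in WT mice. Its groups overlapped, with a log2 fold change of -0.17 (standard error 0.10, 95% interval -0.39 to 0.04, edgeR adjusted p = 0.416).

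Gabrd encodes the delta subunit, which forms extrasynaptic receptors that carry tonic current and is most abundant in cerebellar granule cells and forebrain. It was 0.915, 0.983, 0.580, 0.843 and 0.585 CPM in SOD1G86R mice, against 1.26, 1.46, 1.31, 0.899 and 1.04 CPM in WT mice. These levels rest on 21 to 35 counts per SOD1G86R library and 29 to 48 counts per WT library. WT replicate 4 lay inside the SOD1G86R range, and the other 4 WT mice lay above every SOD1G86R mouse. The log2 fold change was -0.61 (standard error 0.21, 95% interval -1.06 to -0.17, edgeR adjusted p = 0.130). Leaving out 1 mouse at a time gave -0.70 to -0.52 with adjusted p of 0.114 to 0.261, so no single mouse set the direction.

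Gabre encodes the epsilon subunit, which is sparse in the central nervous system. It was 1.89, 1.82, 1.79, 2.27 and 1.99 CPM in SOD1G86R mice, against 3.78, 2.38, 1.82, 2.33 and 2.75 CPM in WT mice. WT replicate 3 fell among the SOD1G86R mice and WT replicate 1 was far above the rest. The log2 fold change was -0.42 (standard error 0.18, 95% interval -0.80 to -0.03, edgeR adjusted p = 0.248), and -0.52 to -0.25 when 1 mouse was left out at a time.

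**Figure D3:**
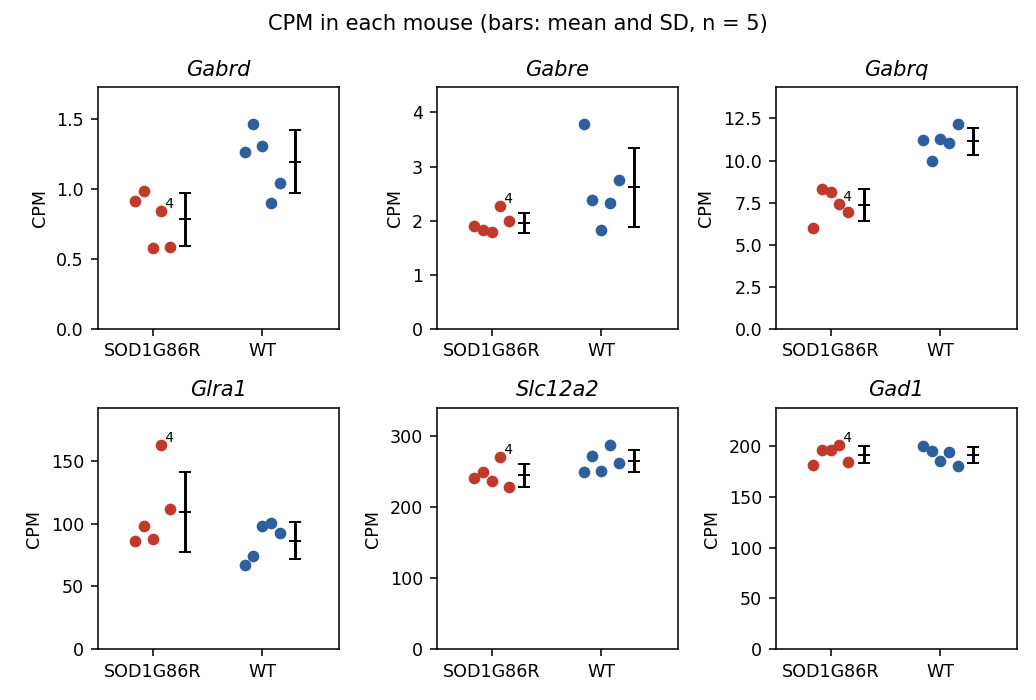
CPM (y axis, from 0) of 6 genes in each of 5 SOD1G86R and 5 WT mice, with points for mice, the digit 4 beside SOD1G86R replicate 4, and bars for mean and SD. The groups do not overlap for Gabrq (5.96 to 8.31 against 9.94 to 12.2 CPM) and overlap for Gabrd, Gabre, Glra1, Slc12a2 and Gad1.

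The GABA-B receptor works only as a pair of Gabbr1, which binds GABA, and Gabbr2, which couples to G proteins. Gabbr1 was 535, 533, 512, 548 and 523 CPM in SOD1G86R mice, against 544, 502, 516, 510.2 and 491 CPM in WT mice. Gabbr2 was 129, 142, 129, 156 and 135 CPM in SOD1G86R mice, against 133, 126, 142, 139.5 and 137 CPM in WT mice. The groups overlapped in both genes. Log2 fold changes were 0.05 (95% interval -0.05 to 0.15, edgeR adjusted p = 0.642) for Gabbr1 and 0.03 (95% interval -0.10 to 0.16, edgeR adjusted p = 0.848) for Gabbr2, whose sign turned without SOD1G86R replicate 4 (-0.019).

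Glycine receptors combine alpha subunits with the beta subunit Glrb, which anchors them to gephyrin. Glra1, the main adult alpha subunit, in which mutations cause startle disease, was 86.4, 98.3, 87.4, 163 and 112 CPM in SOD1G86R mice, against 67.3, 74.4, 98.2, 100.2 and 92.3 CPM in WT mice. SOD1G86R replicate 4 was the highest by far, SOD1G86R replicate 5 was also above every WT mouse, and the other 3 lay within the WT range. The mean was 109 ± 31.6 CPM in SOD1G86R mice and 86.5 ± 14.7 CPM in WT mice (SD, n = 5 each), a log2 fold change of 0.34 (standard error 0.19, 95% interval -0.08 to 0.75, edgeR adjusted p = 0.401). Without SOD1G86R replicate 4 the log2 fold change was 0.15, and Glra1 again did not pass.

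Glra2, an alpha subunit prominent before birth, was 9.21, 10.5, 9.69, 10.7 and 8.98 CPM in SOD1G86R mice, against 8.83, 10.3, 9.47, 10.7 and 12.6 CPM in WT mice. Its groups overlapped, and the log2 fold change was -0.08 (standard error 0.10, 95% interval -0.30 to 0.13, edgeR adjusted p = 0.728). Glra3, a subunit of dorsal horn pain circuits, had 4.67 to 7.29 CPM in SOD1G86R mice and 5.81 to 8.001 CPM in WT mice. Glrb had 285 to 386 CPM in SOD1G86R mice and 285 to 345 CPM in WT mice. Of the summed TPM of the 3 alpha genes, Glra1 took 91.9 ± 1.596% in SOD1G86R cords and 89.8 ± 1.299% in WT cords (SD, n = 5 each). Glra2 took 6.61 ± 1.301% in SOD1G86R and 8.38 ± 1.19% in WT cords, and both shares overlapped between the groups.

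Gphn encodes gephyrin, the scaffold that holds glycine and GABA-A receptors opposite the nerve ending, and Nlgn2 the adhesion protein neuroligin of inhibitory synapses. Gphn was 74.4 to 89.1 CPM in SOD1G86R mice and 79.0 to 86.7 CPM in WT mice. Nlgn2 was 149 to 194 CPM in SOD1G86R mice and 152 to 192 CPM in WT mice. The SOD1G86R range enclosed the WT range in both genes, and log2 fold changes were -0.01 for Gphn and 0.02 for Nlgn2.

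Slc12a5 (KCC2) moves chloride out of neurons, and Slc12a2 (NKCC1), expressed by neurons and glia, moves it in. Slc12a5 was 533, 561, 504, 610.2 and 519.9 CPM in SOD1G86R mice, against 580.1, 497, 545, 517 and 512 CPM in WT mice. The groups overlapped, with a log2 fold change of 0.04 (95% interval -0.10 to 0.18, edgeR adjusted p = 0.789). Slc12a2 was 241, 249, 238, 270.4 and 228 CPM in SOD1G86R mice, against 249.8, 272, 251.7, 288 and 262 CPM in WT mice. All SOD1G86R mice but replicate 4 were below every WT mouse, and the log2 fold change was -0.11 (standard error 0.06, 95% interval -0.24 to 0.01, edgeR adjusted p = 0.362).

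Ratios between 2 genes of the same library do not depend on how libraries are scaled, and 6 were tested by exact two-sided permutation of the mice between the genotypes, whose smallest p is 0.00794. The chloride exporter over the importer, Slc12a5/Slc12a2, was 2.22, 2.25, 2.12, 2.26 and 2.28 in SOD1G86R mice, against 2.32, 1.83, 2.17, 1.79 and 1.95 in WT mice. All 5 SOD1G86R mice were above the WT median, but WT replicate 1 was the highest of the 10 (exact permutation p = 0.103, 0.310 adjusted over 6 ratios). The spread was the larger in WT mice, with 2.23 ± 0.0633 in SOD1G86R and 2.01 ± 0.226 in WT cords (SD, n = 5 each).

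Glra1/Glra2, the adult over the early glycine receptor subunit, was 9.38, 9.36, 9.02, 15.2 and 12.4 in SOD1G86R mice, against 7.63, 7.23, 10.4, 9.34 and 7.33 in WT mice. Again all 5 SOD1G86R mice were above the WT median, and WT replicates 3 and 4 lay inside their range (log2 difference 0.39, exact permutation p = 0.0635, 0.310 adjusted). Without SOD1G86R replicate 4 the log2 difference was 0.27 (exact permutation p = 0.476 adjusted). Slc6a5/Slc32a1, the glycine transporter over the shared vesicle transporter, was 3.07 ± 0.338 in SOD1G86R and 2.78 ± 0.278 in WT cords (exact permutation p = 0.175, 0.349 adjusted, SD, n = 5 each). Gad1/Gad2 was 1.88 ± 0.185 and 1.82 ± 0.157, Gabra2/Gabra5 3.41 ± 0.260 and 3.38 ± 0.290, and Gabbr1/Gabbr2 3.85 ± 0.241 and 3.79 ± 0.230 in SOD1G86R and WT cords, with adjusted exact permutation p of 0.8, 0.857 and 0.8. None of the 6 ratios passed, and the groups overlapped in each.

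**Figure D4:**
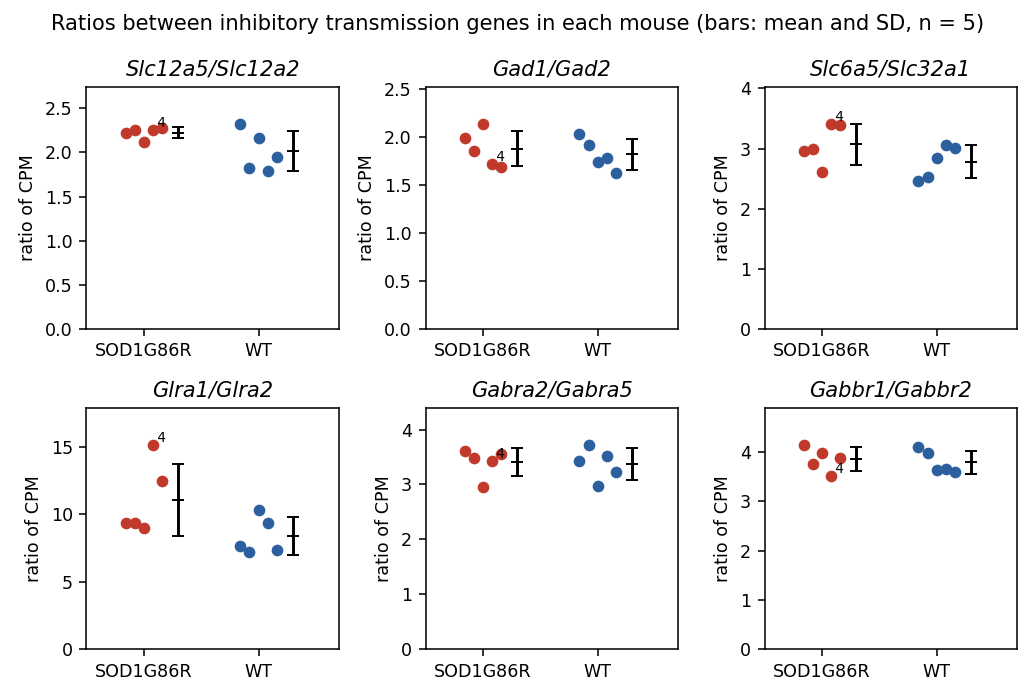
Ratio of the CPM of 2 genes (y axis, from 0) in each of 5 SOD1G86R and 5 WT mice for 6 pairs, with points for mice, the digit 4 beside SOD1G86R replicate 4, and bars for mean and SD. Both groups overlap in each panel, and all 5 SOD1G86R mice exceed the WT median for Slc12a5/Slc12a2 and Glra1/Glra2.

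The spread among SOD1G86R mice followed 1 mouse. SOD1G86R replicate 4 was the highest of its group in 19 of the 25 genes and the lowest in 0, and it was the highest in 24.8% of all genes tested. Its median log2 deviation from the WT mean over the 25 genes was 0.13, against -0.11 to 0.01 in the other 4 SOD1G86R mice. Replicate 1 was the lowest of the group in 11 genes, replicate 3 in 8 and replicate 5 in 6. The coefficient of variation was larger in SOD1G86R than in WT mice for 20 of the 25 genes, against 66.5% of all genes, and without replicate 4 for 12 of 25, against 60.02% of all genes.

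General neuronal and motor neuron markers were also highest in SOD1G86R replicate 4. The neuron markers deviated by a mean log2 of 0.16 from the WT mean in replicate 4 and by -0.13 to -0.05 in the others. The 12 genes listed for inhibitory interneurons summed to 454 to 584 CPM in SOD1G86R mice (516 in replicate 4) and 525 to 598 CPM in WT mice. Of the 12, 0 were called and none was at 0 in all libraries. Penk (139 to 158 CPM in SOD1G86R mice, 147 to 162 in WT) and Pvalb (83.6 to 185, 110 to 153) weighed most. The sum therefore does not measure the number of inhibitory interneurons. The 6 motor neuron markers summed to 303 CPM in SOD1G86R replicate 4, 161 to 234 CPM in the other SOD1G86R mice and 189 to 244 CPM in WT mice, with 0 of 6 called. The part of neuron content in the values of the 25 genes was not tested. Without replicate 4 edgeR still called 0 of 25, against 5.05% of all genes, and their median log2 fold change was -0.05. The log2 fold change was lower without it in 24 of the 25 genes, and the sign turned in 5: Gad1 (-0.013), Slc6a5 (-0.021), Gabbr2 (-0.019), Nlgn2 (-0.030) and Slc12a5 (-0.0029). At an unadjusted p under 0.05 there were then 5, Gabrd, Slc12a2, Gabre, Gabrg3 and Glrb, against 19.5% of all genes. The plot of the genes by mouse shows this column.

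**Figure D5:**
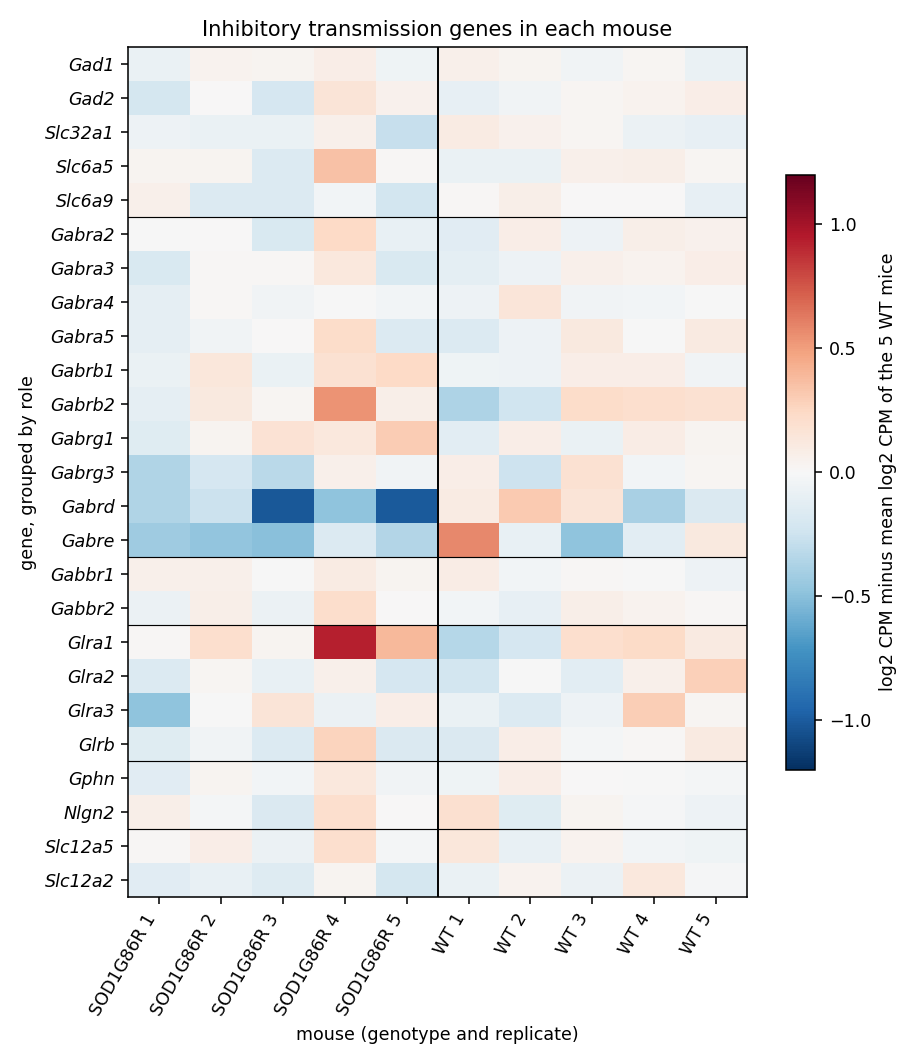
Log2 CPM minus the mean log2 CPM of the 5 WT mice (color) for the 25 genes (y axis, by role) in each of 5 SOD1G86R and 5 WT mice (x axis). SOD1G86R replicate 4 is the highest of its group in 19 of 25 genes, and Gabrd and Gabre are blue, below the WT mean, in all 5 SOD1G86R mice.

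Beyond the 25, 71 further genes of the same pathways were read from the same fit in 6 lists. Of the 66 that could be tested, 0 were higher and 2 lower in SOD1G86R cords, against 0.253% of all genes lower. Gabrq, the theta subunit, was 5.96, 8.31, 8.14, 7.43 and 6.91 CPM in SOD1G86R mice, against 11.2, 9.94, 11.3, 11.1 and 12.2 CPM in WT mice. It fell by 0.60 on the log2 scale (standard error 0.10, 95% interval -0.81 to -0.39, edgeR adjusted p = 0.00625), and every SOD1G86R mouse was below every WT mouse. Hap1, huntingtin-associated protein, which helps return GABA-A receptors to the membrane, was 181, 184, 182, 182 and 169.7 CPM in SOD1G86R mice, against 232, 223, 224, 208 and 205 CPM in WT mice. It fell by 0.28 on the log2 scale (standard error 0.05, 95% interval -0.39 to -0.17, edgeR adjusted p = 0.00809), again without overlap.

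Gabrq and Hap1 kept their direction in each fit that left out 1 mouse, but both passed the threshold only when SOD1G86R replicate 4 was the mouse left out. The adjusted p over the 10 such fits was 0.00235 to 0.0263 for Gabrq and 0.00308 to 0.0352 for Hap1. Over all genes, 190 passed with all mice, 868 without SOD1G86R replicate 4 and 31 to 61 without any other mouse. DESeq2 with all mice called both genes, against 4.22% of all genes given an adjusted p. With libraries scaled by neuron markers, a setting added after the data had been seen, the log2 fold change was -0.54 for Gabrq (edgeR adjusted p = 0.0198) and -0.22 for Hap1 (edgeR adjusted p = 0.0802). By limma voom Gabrq passed and Hap1 missed the threshold (log2 fold change -0.28, adjusted p = 0.0131), against 0.407% of all genes called.

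Among the 11 genes of GABA uptake and turnover, 10 were tested, 0 passed, and the median log2 fold change was 0.03. Slc6a13, a GABA transporter of the meninges, was at 0.44 (edgeR adjusted p = 0.161). Aldh5a1, of the last step of GABA breakdown, which yields succinate, was at -0.16 (0.211). All 10 genes of glycine supply and cleavage were tested and 0 passed (median -0.03), with Slc7a10, an exchanger for glycine and D-serine, at -0.31 (edgeR adjusted p = 0.0964) and Amt, of the glycine cleavage system, at -0.17 (0.225). Of 10 further receptor subunits, 6 were tested and Gabrq alone passed (median 0.02), while Glra4 was at 0.19 (edgeR adjusted p = 0.728). Of 20 partners of the inhibitory synapse, Hap1 alone passed (median -0.02), and Dag1, the dystroglycan of perisomatic synapses, was at 0.21 (edgeR adjusted p = 0.0847).

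The 8 partners of the GABA-B receptor were its auxiliary KCTD proteins, the potassium channels it opens and Rgs7. All 8 had log2 fold changes above 0, against 8094 of the 16974 genes tested, and 0 passed by edgeR (median 0.06). Kctd12, an auxiliary subunit that speeds desensitization, was at 0.43 (edgeR adjusted p = 0.0407, against 0.00669 by DESeq2) and Kctd12b at 0.19 (0.397). The 12 genes of chloride control also gave 0 calls by edgeR (median -0.03). Neto2, an auxiliary subunit of kainate receptors that also binds KCC2, was at 0.26 without overlap of the groups (edgeR adjusted p = 0.0252, against 0.00249 by DESeq2), and Slc12a4, a potassium chloride cotransporter of many tissues, was at 0.34 (0.0777). By DESeq2 Kctd12 and Neto2 thus passed beside Gabrq and Hap1. These were 4 of the 71 listed genes, against 4.22% of all genes given an adjusted p. Over the 6 lists, 7 of 66 genes were higher at an unadjusted p under 0.05, against 10.8% of all genes, and 8 were lower, against 6.33%.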

How the data were processed

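Lumbar spinal cord RNA of 5 SOD1G86R and 5 WT mice was sequenced, 1 library per mouse. The deposited values are raw counts per gene, made by the authors by mapping to mm10 and counting reads, with TopHat2 2.0.14 and HTSeq 0.6.1 listed in the submitters' processing notes. The sources used here name neither a library kit nor a strand setting. Of the 25 genes, 7 have exons that overlap a gene on the opposite strand (Slc32a1, Slc6a9, Gabra4, Gabrb1, Gabra5, Glra1 and Gphn), and without strand such reads cannot be told apart.

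Counts were analysed with R 4.3.3 and edgeR 4.0.16 (filterByExpr, TMM, robust quasi-likelihood F test, Benjamini-Hochberg over 16974 genes, adjusted p under 0.01), after tests on simulated data. The standard error is the log2 fold change over the root of F. DESeq2 1.42.0, limma voom 3.58.1, other scalings and filters, a replicate block and each mouse left out were alternatives. TPM used GENCODE M21 exon lengths. Ratios were tested by exact permutation (scipy 1.17.1). Named genes were the 25, pathway genes past the test and up to 2 per list with the smallest p. Every mouse is given for the 8 of the 25 with the smallest p and for genes in ratios. The genes and lists were chosen with earlier results of these data known.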

Additional observations from a re-analysis of the deposited data

Results flagged for a closer look

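In 86 groups of 5 mice, the highest or lowest mouse was compared with the range of its group, a check that chance alone meets in about 1 of 20 groups, and 5 groups met it. Glrb was 386 CPM in SOD1G86R replicate 4, against 285 to 311 CPM in the other SOD1G86R mice. Aldh5a1 was 142 CPM in the same mouse, against 112 to 120 CPM in the other SOD1G86R mice. Hap1 was 169.7 CPM in SOD1G86R replicate 5, against 181 to 184 CPM in the others of that group, so that its lowest mouse lay farther from WT than the rest. The ratio Gabra2/Gabra5 was 2.96 in SOD1G86R replicate 3, against 3.42 to 3.61 in the others. Gabra4 was 22.8 CPM in WT replicate 2, against 19.8 to 20.6 CPM in the other WT mice.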

How the results depend on the processing

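The 25 genes gave 0 calls under each of the 20 alternatives, with 24 of them tested where at least 1 CPM was required, and the 6 ratios gave 0 calls under each of theirs. The count over all genes, 190, was 829 by DESeq2, 69 by limma voom, 781 at an adjusted p under 0.05 and 51 with scaling by neuron markers (chosen after seeing the data), and 31 to 868 with 1 mouse left out. It was 868 only without SOD1G86R replicate 4 and 31 to 61 without each of the other 9. The 2 pathway genes became 4 by DESeq2 and at an adjusted p under 0.05 (Gabrq, Hap1, Kctd12 and Neto2 in both), 1 by limma voom, 1 with no filter on low counts, 0 with scaling by neuron markers, and 0 to 4 with 1 mouse left out: 4 without SOD1G86R replicate 4 (Gabrq, Hap1, Slc12a4 and Slc7a10) and 0 without any other. The shares called over all genes were 1.12% in the main fit, 4.22% by DESeq2 and 4.6% at an adjusted p under 0.05. By limma voom the share was 0.407%, and without SOD1G86R replicate 4 it was 5.05%. Of the 25 genes, none of which passed in any fit, the sign turned in 26 of 250 fits without 1 mouse. The range over the 10 mice left out was -0.014 to 0.025 for Gad1, -0.086 to 0.0051 for Gad2, -0.021 to 0.115 for Slc6a5, -0.068 to 0.042 for Gabra2, -0.081 to 0.017 for Gabra5, -0.019 to 0.054 for Gabbr2, -0.11 to 0.033 for Glra3, -0.048 to 0.018 for Gphn, -0.030 to 0.068 for Nlgn2 and -0.0029 to 0.072 for Slc12a5. For the log2 ratios it was -0.0017 to 0.087 for Gad1/Gad2, -0.032 to 0.064 for Gabra2/Gabra5 and -0.0048 to 0.056 for Gabbr1/Gabbr2. Gabra2, at -0.00055, was at 0.00075 by DESeq2, 0.0017 with RLE scaling, 0.0062 with no filter, 0.0056 with the CPM filter and 0.0058 without Sod1 and its pseudogene, and Gad1 was at -0.0011 with upper quartile scaling. Scaling by neuron markers, which shifts all genes alike, turned 8: Gad2 (0.026), Gabra2 (0.060), Gabra3 (0.022), Gabra4 (0.030), Gabra5 (0.042), Glra3 (0.010), Glrb (0.014) and Gphn (0.051). That scaling moved the median of all genes to 0.06 and of the 25 to 0.04. The causes were not tested.

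Groups share replicate numbers, but nothing in the labels says that a number marks a litter or batch, and same-numbered mice did not deviate together: correlations were -0.37 to 0.26, and 1 of 5 mice correlated best with its own number. With the replicate number as a block, 140 genes passed, with 0 of the 25 and 0 of the pathway genes, where Gabrq had an adjusted p of 0.0157 and Hap1 of 0.0150 (edgeR). Depth limits Gabrd most, with 21 to 48 counts per library.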
